A study of Mus musculus with 9 samples.

Results

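The forkhead (Fox) transcription factor genes were followed through T15, a murine cell line derived from a Smarcb1-negative peripheral T-cell lymphoma. Members were the protein-coding genes whose symbol is Fox followed by a letter from a to s and a number, which gave 44 of the 35288 genes in the count table. Bulk RNA sequencing had been done on 9 libraries in 3 groups of 3 biological replicates. T15 lacks Smarcb1, a core subunit of the SWI/SNF (BAF) chromatin remodelling complex, and all groups share that background. The control group was called untreated in the study's text, whereas its labels speak of a vehicle and of a control plasmid without saying which of them the control libraries had received. The SAHA group had received SAHA (vorinostat, an inhibitor of histone deacetylases) at 1 µM, given 2 times within 72 h. The Smarcb1-RE group had been transduced with a lentiviral pInducer20 plasmid carrying Smarcb1, selected with G418 and induced with doxycycline at 0.5 µg/µl for 72 h. Stable clones had been raised after transduction, and the sources used here do not say which of them gave the sequenced RNA. An effect of transduction, selection, doxycycline or the choice of a clone therefore cannot be told apart from an effect of Smarcb1.

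Forkhead factors share a winged-helix DNA-binding domain, the forkhead box, whose recognition helix lies in the major groove of DNA, and they are sorted into lettered subfamilies by the sequence of that domain. Several act in lymphocytes: the FOXO factors are excluded from the nucleus by the kinase AKT and drive genes of quiescence and lymph node homing, Foxp1 keeps naive T cells quiescent, Foxp3 defines regulatory T cells, and Foxm1 drives genes of the G2 and M phases. Others are known from embryonic tissues. Foxb1 and Foxb2 are a pair of such genes, both expressed in the developing neural tube and neither known as a T-cell gene.

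The coding sequences of the pair are shown first because the pair moved in opposite directions in Smarcb1-RE. Foxb1 (ENSMUSG00000059246) lies at chr9:69757710-69760940 and Foxb2 (ENSMUSG00000056829) at chr19:16872319-16873805, both on the minus strand of GRCm38 and each with 1 annotated transcript. Their proteins have 325 and 428 residues. Over residues 13 to 100, which hold the forkhead box, the pair differed in 31 of 264 bases and in 6 of 88 residues, an identity of 88.3% and 93.2%. Capitals mark the bases that differ between them, and the sequences are from the GENCODE transcripts of GRCm38.
Foxb1: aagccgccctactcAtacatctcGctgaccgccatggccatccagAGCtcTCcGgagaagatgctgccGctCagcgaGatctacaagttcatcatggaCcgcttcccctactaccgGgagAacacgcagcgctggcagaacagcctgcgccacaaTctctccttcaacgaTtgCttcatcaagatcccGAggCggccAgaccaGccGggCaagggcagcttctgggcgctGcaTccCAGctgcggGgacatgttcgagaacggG
Foxb2: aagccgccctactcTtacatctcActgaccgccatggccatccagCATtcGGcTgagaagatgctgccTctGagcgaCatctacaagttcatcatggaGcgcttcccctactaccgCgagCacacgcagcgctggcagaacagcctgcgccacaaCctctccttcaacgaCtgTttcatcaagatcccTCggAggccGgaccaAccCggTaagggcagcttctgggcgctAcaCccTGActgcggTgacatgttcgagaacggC
Despite this likeness the transcripts shared only 4 stretches of 31 bases, the longest exact match was 34 bases, and reads of the pair could therefore be told apart over nearly their whole length. The recognition helix was found in 42 of the 44 members (all but Foxh1 and Foxr1), over 36 coding bases. It is shown for the Foxb pair, for Foxd4, which was at 0 counts in control, and for Foxm1 as a more distant member, with capitals at the bases that differ from Foxb1.
Foxb1: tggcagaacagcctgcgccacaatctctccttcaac
Foxb2: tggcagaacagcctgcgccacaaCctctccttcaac
Foxd4: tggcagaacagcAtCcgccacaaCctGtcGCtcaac
Foxm1: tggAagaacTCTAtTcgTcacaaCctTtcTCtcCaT
Foxb2 differed from Foxb1 in 1 base and in 0 of the 12 encoded residues. Across the members, 0 to 6 of the 12 residues differed from Foxb1, with 2 in Foxd4 and 4 in Foxm1.

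Promoters are shown for Foxb2 and Foxd4, the tested members that were at or under 3 counts in all libraries of a group. Each covers 250 bases before and 50 bases after a transcription start, from RefSeq (GRCm38.p6), at chr19:16873781-16874080 and chr19:24900967-24901266 on the minus strand, and capitals mark CpG dinucleotides.
Foxb2: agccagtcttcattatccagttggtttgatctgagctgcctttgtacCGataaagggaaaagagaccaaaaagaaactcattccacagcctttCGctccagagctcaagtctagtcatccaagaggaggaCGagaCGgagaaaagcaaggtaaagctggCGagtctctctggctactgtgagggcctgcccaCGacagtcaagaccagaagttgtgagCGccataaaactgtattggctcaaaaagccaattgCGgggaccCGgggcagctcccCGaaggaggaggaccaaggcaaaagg
Foxd4: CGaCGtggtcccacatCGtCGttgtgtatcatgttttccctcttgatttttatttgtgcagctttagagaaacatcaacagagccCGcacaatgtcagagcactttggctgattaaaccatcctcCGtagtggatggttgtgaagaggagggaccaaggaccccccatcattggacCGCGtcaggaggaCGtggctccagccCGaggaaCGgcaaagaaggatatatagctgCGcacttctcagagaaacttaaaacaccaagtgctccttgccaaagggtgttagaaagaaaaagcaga
They held 10 and 12 CpG dinucleotides at a GC content of 51.7% and 49.0%. RefSeq entries matched 28 of the members with 33 promoters, whose median was 22 CpG, against 7 in all 32851 promoters of that length. A forkhead motif was searched on both strands as GTAAACA, whose reverse complement is TGTTTAC. It was found in 1 of the 33 members' promoters, that of Foxa1, and in 3.65% of all promoters.

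Libraries held 20900424 to 24941408 counts, so that 3 counts, used here as a floor per library, were worth 0.123 to 0.133 counts per 1000000 (CPM). Control replicate 1 stood apart from the other control libraries, with a chi-square per gene of 13.4 and 15.0 against them, compared with 2.12 to 4.69 for all other pairs of replicates. Counts of Smarcb1 itself were 2, 5 and 8 (control), 7, 13 and 3 (SAHA) and 151, 147 and 142 (Smarcb1-RE). In the last group its log2 fold change against control was 4.89 (SE 0.36, adjusted p = 6.19e-08). Of 16 T-cell markers, 12 were over the floor in every library, with a summed level of 4768 to 5147 CPM in control, 4868 to 4945 CPM in SAHA and 4593 to 4662 CPM in Smarcb1-RE. Cd4 was at 0 throughout and Cd2, Cd5 and Thy1 were at or near 0, whereas Cd8a averaged 690 to 1012 CPM. Myeloid markers summed to at most 0.851 CPM. B-cell markers summed to 92.7 to 96.1, 101 to 112 and 155 to 163 CPM in the 3 groups, nearly all from Ebf1. Epithelial and stromal markers summed to 156 to 162, 117 to 131 and 195 to 199 CPM, mainly from Pecam1 and Pdgfra. In bulk RNA, fewer cells of a type and less RNA per cell cannot be told apart.

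Of the 44 forkhead genes, 27 passed the filter on low counts and 14 had over 100 counts in every library. The family was carried by few genes. On a scale of counts per kilobase of exon scaled to a total of 1000000 in every library, Foxf2 (a factor of mesenchyme) was at 102 ± 10.5 in control (mean ± SD, n = 3), Foxp1 at 76.8 ± 6.40, Foxm1 at 63.5 ± 5.68, Foxk2 at 61.3 ± 6.46, Foxo1 at 49.9 ± 6.21 and Foxk1 at 29.0 ± 5.69. These 6 genes made up 72.5% of the family's summed level in control. Foxm1 and Foxk2 differed by less than their SDs. Foxj2 (20.7 ± 3.08), Foxn3 (20.6 ± 1.58), Foxj3 (19.2 ± 2.41) and Foxi1 (18.6 ± 1.38) came after Foxk1, and each of these lay within either SD of the next in the order. The order of Foxf2 and Foxp1 depended on the length used: per kilobase of the longest transcript Foxf2 was at 81.6 and Foxp1 at 117. In SAHA the per-length order began with Foxp1 (89.5 ± 0.54), Foxf2 (81.7 ± 0.37) and Foxo1 (68.2 ± 0.68). In Smarcb1-RE it began with Foxf2 (92.9 ± 4.60), Foxp1 (75.0 ± 0.57), Foxm1 (53.7 ± 1.21) and Foxb1 (51.4 ± 1.21). The summed level of all 44 genes was 528 ± 55.0 in control, 555 ± 0.68 in SAHA and 565 ± 10.0 in Smarcb1-RE, differences within the SD of the control libraries.

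**Figure D1:**
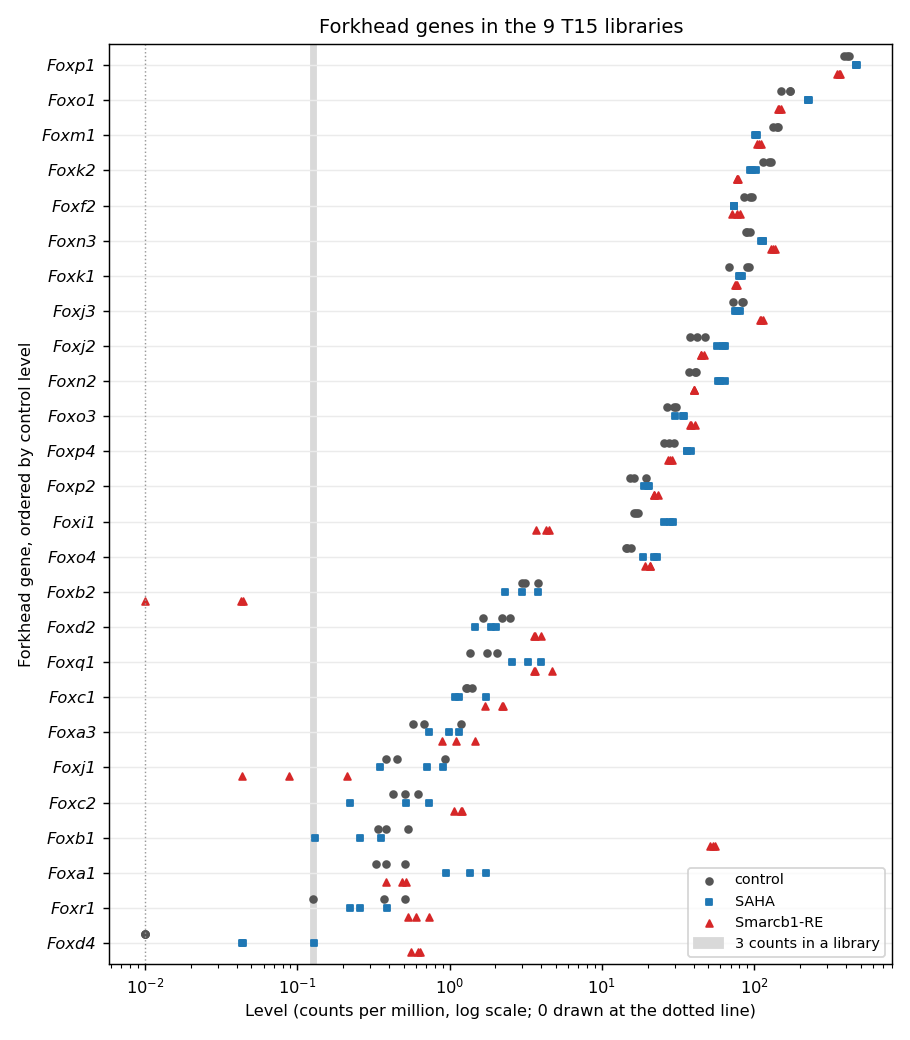
Level of the tested forkhead genes, all but 1 of 27 (CPM, log axis) in each of the 9 libraries, 3 per group, ordered by the mean in control. The grey band marks 3 counts in a library, 0.123 to 0.133 CPM, and values of 0 are drawn at the dotted line. Foxb1 in Smarcb1-RE sits at 51.4 to 55.1 CPM, far right of the other groups, and Foxb2 in Smarcb1-RE sits left of the band.

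Foxb1 and Foxb2 changed places between groups. Foxb1 had 8, 9 and 13 counts in control, 3, 8 and 6 under SAHA and 1292, 1160 and 1246 in Smarcb1-RE. Foxb2 had 70, 74 and 92 counts in control, 69, 86 and 54 under SAHA and 1, 1 and 0 in Smarcb1-RE. For both genes the Smarcb1-RE libraries lay outside the range of the other 6, above it for Foxb1 and below it for Foxb2, whereas the control and SAHA libraries were close to each other. As this pair was singled out with these values known, its Smarcb1-RE difference is given without a test. In CPM, Foxb1 was at 0.340, 0.38 and 0.535 in control, 0.130, 0.354 and 0.258 under SAHA and 55.1, 51.4 and 53.7 in Smarcb1-RE, a log2 fold change against control of 6.97 (SE 0.12) or 126-fold. Foxb2 was at 2.98, 3.13 and 3.78 CPM in control and 2.99, 3.8 and 2.33 CPM in SAHA. In Smarcb1-RE it was at or under 3 counts in every library and thus at least 25.3-fold lower than control and at least 23.4-fold lower than SAHA. SAHA left neither gene past the threshold, with a log2 fold change against control of −0.75 (SE 0.35, adjusted p = 0.103) for Foxb1 and −0.12 (SE 0.22, adjusted p = 0.654) for Foxb2.

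**Figure D2:**
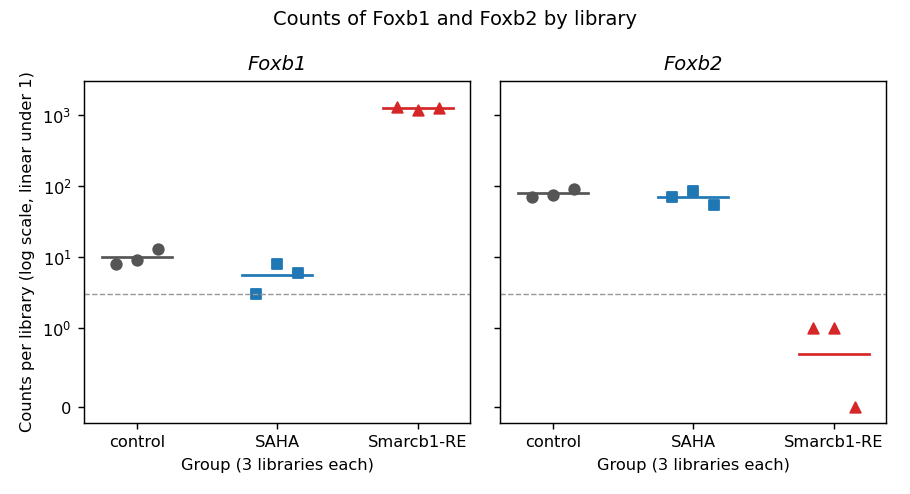
Counts of Foxb1 and Foxb2 in each library of the 3 groups (log axis, linear under 1), with a line at each group's mean and a dashed line at 3 counts. Foxb1 is at 3 to 13 counts in control and SAHA and at 1160 to 1292 in Smarcb1-RE, and Foxb2 is at 54 to 92 and at 0 to 1.

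Levels of the pair can be compared per length. Foxb2 was 15.8 times the level of Foxb1 in control (5.82 ± 1.00 against 0.369 ± 0.106) and 24.7 times in SAHA (5.35 ± 1.29 against 0.217 ± 0.0972). In Smarcb1-RE, Foxb1 at 51.4 was at least 205 times the level that 3 counts of Foxb2 would give. Foxb1 thereby went from rank 25 of the 44 forkhead genes in control and 27 in SAHA to rank 4 in Smarcb1-RE, and Foxb2 from rank 15 in both to rank 31. Among all genes listed Foxb1 was ranked 13428 in control and 2812 in Smarcb1-RE. Foxb1 lies opposite the antisense gene B230323A14Rik over 2201 bases and Foxb2 lies wholly within AC128703.1, a non-coding gene on the opposite strand, over 1487 bases. The library kit marked strand, whether the counting used it is not given in the sources used here, and neither of these genes is listed in the table, so reads from them cannot be told apart from those of the pair.

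The genes beside the pair did not follow them as a block. The 3 nearest tested protein-coding genes on each side were compared, and the closest lay 229 kb from Foxb1 and 82.3 kb from Foxb2. Beside Foxb1, Anxa2 (annexin A2, a calcium-dependent membrane-binding protein) fell in Smarcb1-RE from 192 ± 7.61 to 50.5 ± 5.07 CPM, a log2 fold change of −1.93 (SE 0.07, adjusted p = 1.04e-10). Rora and Gtf2a2 rose by 0.52 and 0.61, and Ice2 and Bnip2 fell with log2 fold changes of −0.29 and −0.29, while Myo1e did not pass the test (−0.48, adjusted p = 0.423). Beside Foxb2, which was all but lost in Smarcb1-RE, Vps13a rose by 0.76 (SE 0.06, adjusted p = 9.6e-08) and Prune2 by 0.77 (SE 0.06, adjusted p = 9.04e-08), and these are the nearest on either side. Gcnt1 rose by 0.12 and Rfk fell with a log2 fold change of −0.35, whereas Gnaq (−0.10) and Cep78 (−0.12) did not pass the test. Under SAHA 7 of the 12 neighbours rose and 2 fell, where 32.6% of all genes rose and 34.3% fell. Gcnt1 rose by 1.06 (adjusted p = 4.5e-09). Myo1e, also among the 7, was at 0.563 to 1.19 CPM under SAHA. It was at 0.128 to 0.296 CPM in control and 0.129 to 0.177 CPM in Smarcb1-RE. As Myo1e passed the filter through its SAHA libraries, its change of 1.89 is given without a test. The median log2 fold change in Smarcb1-RE was 0.03 over the genes of chromosome 9 and −0.08 over those of chromosome 19.

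**Figure D3:**
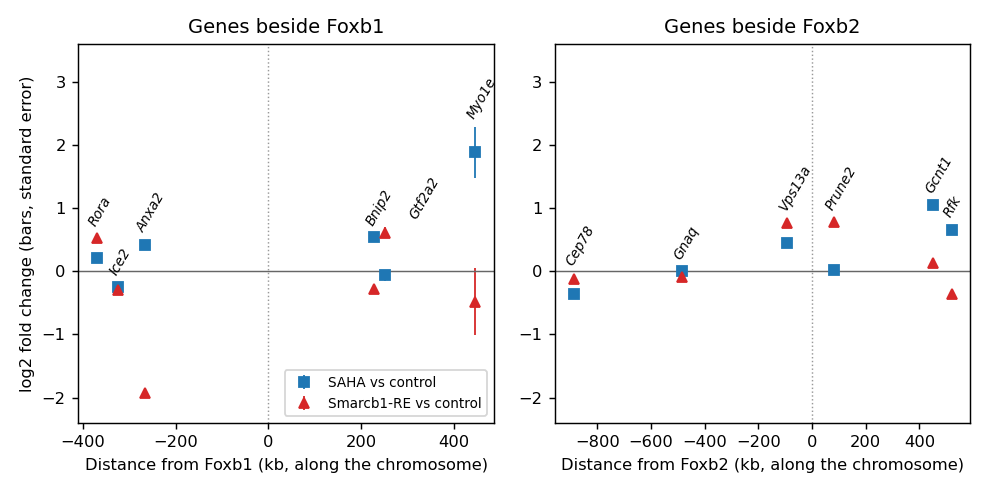
log2 fold change against control (bars, standard error) of the tested genes nearest to Foxb1 and Foxb2, by distance in kb along the chromosome, 3 on each side. Anxa2 is at −1.93 in Smarcb1-RE beside Foxb1, and Vps13a and Prune2 on both sides of Foxb2 are at 0.76 and 0.77.

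Under SAHA, more of the tested forkhead genes rose than fell. Of 27, 14 rose, where 32.6% of all 13697 genes tested rose, and 3 fell (Foxf2, Foxk2 and Foxm1), where 34.3% of all genes fell. Their median log2 fold change was 0.22 (0.20 with genes at the floor set to their bound), and that of all genes 0.003. In Smarcb1-RE against control 11 rose, beside 39.2% of all genes, and 9 fell, beside 38.6%, with a median of 0.19 against 0.014 over all genes. Scaled by library totals alone, the median of all genes in Smarcb1-RE moved by 0.159 and 61.0% instead of 50.4% of all calls were higher, and 15 forkhead genes then rose and 6 fell. In Smarcb1-RE against SAHA, 9 were higher, beside 37.7% of all genes, and 11 lower, beside 36.8%. By library totals these were 12 and 11, where 62.1% instead of 50.6% of all calls were higher. The SAHA and Smarcb1-RE comparisons share the control libraries. Without control replicate 1 the counts were 12 higher and 5 lower under SAHA, Foxj3 (−0.12) and Foxk1 (−0.17) being called in addition, and 12 higher and 9 lower in Smarcb1-RE. The share of all genes called without that library is not given, so the counts of that refit cannot be set against a background. Foxb1, Foxd4 and Foxr1 are among the 27 genes counted here, although they passed the filter only through Smarcb1-RE. Foxa3 and Foxk1 were called in no comparison.

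**Figure D4:**
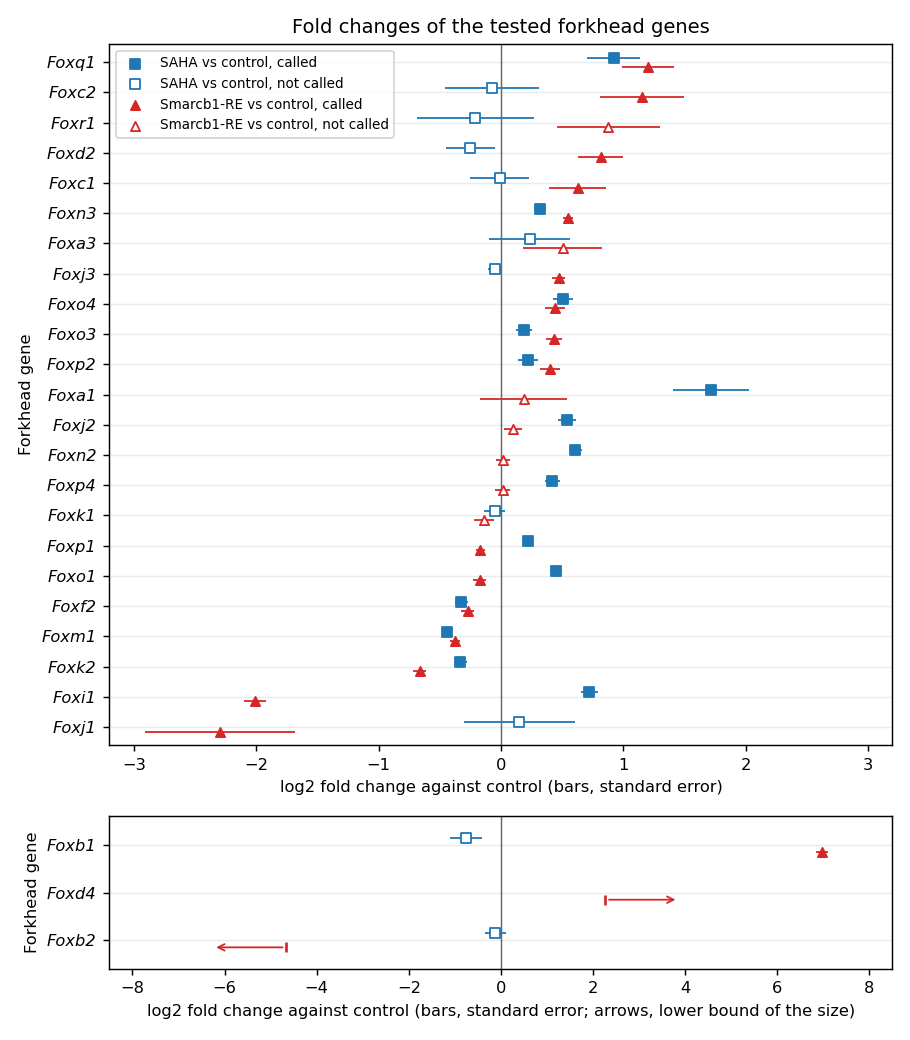
log2 fold change against control of the tested forkhead genes, all but 1 of 27, under SAHA (squares) and in Smarcb1-RE (triangles), with standard errors, filled where the adjusted p was under 0.05. The lower panel has a wider axis and gives Foxb1 with Foxb2 and Foxd4, whose Smarcb1-RE values are drawn as lower bounds (25.3-fold lower and 4.82-fold higher), and Foxd4 under SAHA is not drawn. Foxb1 in Smarcb1-RE is drawn filled, but the gene was singled out with these values known and no test is read from it. Foxi1 is at 0.72 under SAHA and −2.01 in Smarcb1-RE.

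Foxi1 rose under SAHA and fell in Smarcb1-RE. This gene, the factor of ionocytes in kidney and inner ear, had 383, 394 and 418 counts in control, 591, 659 and 648 under SAHA and 100, 101 and 86 in Smarcb1-RE. The 3 groups did not overlap. Its log2 fold change was 0.72 (SE 0.07, adjusted p = 1.47e-06) under SAHA, −2.01 (SE 0.09, adjusted p = 5.04e-10) in Smarcb1-RE and −2.73 between Smarcb1-RE and SAHA (SE 0.08, adjusted p = 3.2e-11), and per length it went from 30.6 ± 1.76 in SAHA to 5.06 ± 0.50.

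Foxj1, which switches on the genes of motile cilia, had 9, 22 and 11 counts in control, 8, 16 and 21 under SAHA and 5, 2 and 1 in Smarcb1-RE. It was lower in all 3 Smarcb1-RE libraries than in any other, by −2.30 on the log2 scale against control (SE 0.61, adjusted p = 0.00401), and was not called under SAHA (0.15, adjusted p = 0.787). Genes of motile cilia, by contrast, were mostly higher in Smarcb1-RE. Of 30 listed, 16 were tested and 10 rose and 2 fell in Smarcb1-RE, where 39.2% of all genes rose and 38.6% fell, with a median of 0.84. Dnah5, an outer dynein arm heavy chain, went from 3, 0 and 2 counts in control to 41, 57 and 63 in Smarcb1-RE, at least 18.5-fold higher, and passed the filter through that group alone. Dnali1, a dynein light intermediate chain, rose by 2.51 (SE 0.21, adjusted p = 2.05e-07) and Cfap126 by 1.68 (SE 0.09, adjusted p = 3.94e-09). Under SAHA 4 rose and 2 fell, beside 32.6% and 34.3% of all genes, with a median of 0.04 (0.01 with genes at the floor set to their bound), led by Ccno (2.21), Mcidas (1.49) and Cfap126 (0.73). Ccno and Mcidas act in multiciliated cell differentiation. Between Smarcb1-RE and SAHA 9 were higher and 4 lower, beside 37.7% and 36.8% of all genes. Among the lower was Ccdc65, a dynein regulatory complex subunit (−1.81, adjusted p = 0.000437).

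Foxa1, a pioneer factor of endoderm, moved under SAHA alone among the comparisons with control. It had 9, 12 and 8 counts in control, 22, 31 and 40 under SAHA and 9, 11 and 12 in Smarcb1-RE. All SAHA libraries were above all others, by 1.72 on the log2 scale against control (SE 0.31, adjusted p = 0.000329), and Smarcb1-RE was lower than SAHA (−1.53, SE 0.31, adjusted p = 0.00058), with 0.19 against control (adjusted p = 0.647). Foxq1, an epithelial and hair follicle factor, rose in both treated groups. Its counts were 48, 32 and 43 in control, 59, 74 and 92 under SAHA and 84, 82 and 109 in Smarcb1-RE, every treated library being above every control library. The changes were 0.92 (SE 0.22, adjusted p = 0.00227) and 1.20 (SE 0.21, adjusted p = 0.000201), and Smarcb1-RE and SAHA did not differ past the threshold (0.28, adjusted p = 0.219). Foxq1 overlaps the antisense gene A530084C06Rik, which had at most 26 counts.

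Foxc1, Foxc2 and Foxd2, factors of mesenchyme, vessels and somites, rose in Smarcb1-RE and were not called under SAHA. Foxc2 had 12, 10 and 15 counts in control, 17, 5 and 12 under SAHA and 28, 24 and 28 in Smarcb1-RE, whose libraries lay above all others. It rose by 1.15 on the log2 scale against control (SE 0.34, adjusted p = 0.00821) and was −0.07 under SAHA (adjusted p = 0.885). It lies within Gm20388, a same-strand gene with up to 1837 counts, and the split of reads between them is uncertain. Foxd2 had 39, 59 and 54 counts in control, 34, 42 and 47 under SAHA and 94, 81 and 84 in Smarcb1-RE, again with no overlap. It rose by 0.81 against control (SE 0.19, adjusted p = 0.00152) and was 1.07 higher than in SAHA (SE 0.19, adjusted p = 0.000244). Foxd2 lies on chromosome 4, over which the median log2 fold change in Smarcb1-RE was 0.37, against −0.02 over the other chromosomes, and the part of that shift in its rise was not tested. Foxc1 went from 1.33 ± 0.06 to 2.05 ± 0.30 CPM, a change of 0.63 (SE 0.23, adjusted p = 0.0249). It missed the threshold without control replicate 1 (adjusted p = 0.0613) or 2 (0.0618), or without Smarcb1-RE replicate 2 (0.0808) or 3 (0.0832).

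Foxd4, a factor of early neural ectoderm at chr19:24899236-24901197, had 0, 0 and 0 counts in control, 1, 1 and 3 under SAHA and 15, 14 and 13 in Smarcb1-RE. Only the Smarcb1-RE libraries were above the floor, at least 4.82-fold higher than control and at least 4.65-fold higher than SAHA. As Foxd4 passed the filter through that group alone, this is given without a test. It was also called higher under SAHA (adjusted p = 0.0166), but both groups were at or under 3 counts per library and no fold is given. Foxr1 had 12, 3 and 9 counts in control, 6, 5 and 9 under SAHA and 14, 12 and 17 in Smarcb1-RE. It passed the filter through Smarcb1-RE alone, was called between Smarcb1-RE and SAHA (1.08, SE 0.43), and lost that call when any of 6 libraries (all but SAHA replicate 3 and control replicates 1 and 2) was left out. Against control it was at 0.88 and not called, the groups touching at 12 counts. By library totals it was at 1.03 and without control replicate 1 at 1.29. As Foxr1 passed the filter only through the group where it was high, no test is read from these values.

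As Foxb1, Foxb2 and Foxd4 belong to the neural tube, other transcription factors of that tissue and of the midbrain were read beside them. Of 32 listed, 11 were tested. In Smarcb1-RE 8 rose and 3 were not called, with a median of 1.36, and under SAHA 7 rose and 2 fell, with a median of 1.32. Of all genes 39.2% rose and 38.6% fell in Smarcb1-RE, and 32.6% rose and 34.3% fell under SAHA. Genes this low, however, can pass the filter through the group where they are high. Pax5, which is also a B-cell factor, had 0, 6 and 1 counts in control. It had 22, 11 and 20 under SAHA and 89, 92 and 88 in Smarcb1-RE, a change of 5.24 there (SE 0.49). Sim1 had 3, 8 and 8 counts in control and was 2.23 higher under SAHA and 3.8 higher in Smarcb1-RE. Both genes passed the filter only through the treated groups, where they were high, and are given without a test. En1, an engrailed factor of the midbrain, rose in Smarcb1-RE only against both other groups, from 11, 8 and 13 counts in control to 84, 80 and 81 (2.97, SE 0.28, adjusted p = 7.27e-07). Lhx5 was instead highest under SAHA, with 29, 48 and 46 counts against 4, 4 and 3 in control (3.49, SE 0.37). In Smarcb1-RE it had 13, 7 and 8 counts, above every control library and below every SAHA library. It passed the filter through its SAHA libraries and is given without a test. Between Smarcb1-RE and SAHA 5 were higher and 3 lower, beside 37.7% and 36.8% of all genes.

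The FOXO genes split. Foxo1, the main FOXO factor of T cells, rose under SAHA from 165 ± 13.1 to 225 ± 2.51 CPM (0.45, SE 0.05, adjusted p = 6.82e-06) and was 146 ± 3.40 CPM in Smarcb1-RE (−0.17, SE 0.05, adjusted p = 0.00886), where scaling by library totals brought it to −0.01 (adjusted p = 0.816). Foxo3 rose in both, from 28.9 ± 2.07 to 33.0 ± 2.39 CPM under SAHA (0.19, adjusted p = 0.0254) and to 39.0 ± 1.63 CPM in Smarcb1-RE (0.43, SE 0.07, adjusted p = 6.02e-05). Its SAHA call was lost without control replicate 1 (adjusted p = 0.0821), SAHA replicate 2 (0.0973) or SAHA replicate 3 (0.105). Foxo4 rose by 0.51 and 0.44 (adjusted p = 0.000109 and 0.000243). Foxo6, a brain gene, had 0 to 1 counts in control, 5 to 8 in SAHA and 2 to 5 in Smarcb1-RE and was not tested.

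Of 25 FOXO target genes, 17 rose and 4 fell under SAHA, beside 32.6% and 34.3% of all genes, and 17 rose and 6 fell in Smarcb1-RE, beside 39.2% and 38.6%. The medians were 0.46 and 0.82, against 0.003 and 0.014 over all genes. Sesn3, a sestrin that restrains mTORC1, rose from 8.83 ± 0.78 to 46.7 ± 5.44 CPM under SAHA (2.40, SE 0.09, adjusted p = 1.44e-09) and stood at 43.3 ± 1.18 CPM in Smarcb1-RE. Txnip, an inhibitor of thioredoxin and of glucose uptake, went from 15.3 ± 0.89 to 24.3 ± 4.33 CPM in SAHA and to 92.5 ± 2.66 CPM in Smarcb1-RE (2.60 against control, SE 0.10, adjusted p = 1.52e-10). Pik3ip1, an inhibitor of PI3K, rose by 1.72 and 2.53, Gadd45a by 1.26 under SAHA, and Irs2, which passed the filter through Smarcb1-RE alone, was at 2.61 there, from 2 to 4 counts in control. The homing and survival genes of this list stood apart between the treated groups. S1pr1, the receptor for egress from lymph nodes, was at 202 ± 5.84 CPM in control, 275 ± 4.09 CPM in SAHA and 39.7 ± 1.39 CPM in Smarcb1-RE, −2.79 between Smarcb1-RE and SAHA (SE 0.04, adjusted p = 1.21e-13). Ccr7 (57.2, 82.6 and 12.3 CPM) and Il7r (36.4, 49.2 and 7.10 CPM) were ordered alike, at −2.75 and −2.79. Over the list 11 were higher and 8 lower in Smarcb1-RE than in SAHA, beside 37.7% and 36.8% of all genes.

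Of the 22 genes of the AKT arm upstream of FOXO, 21 were tested. Under SAHA 7 rose and 9 fell, beside 32.6% and 34.3% of all genes, and in Smarcb1-RE 5 rose and 10 fell, beside 39.2% and 38.6%, with medians of −0.08 and −0.17. Akt1 fell in Smarcb1-RE from 291 ± 10.0 to 143 ± 2.30 CPM (−1.02, SE 0.04, adjusted p = 1.61e-10). Pik3r5, a regulatory subunit of PI3K gamma, fell there (−0.78, SE 0.05, adjusted p = 1.36e-08). Between Smarcb1-RE and SAHA 6 were higher and 11 lower, beside 37.7% and 36.8% of all genes. Under SAHA the largest changes among those called were in Sgk1 (1.35), a kinase that also phosphorylates FOXO factors, Pik3cd (0.79), the delta catalytic subunit of PI3K, and Skp2 (−0.76), an F-box protein that targets Foxo1. These are RNA levels and do not show phosphorylation or the place of a FOXO protein in the cell.

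Foxm1 fell in both treated groups. It was at 139.5 ± 5.90 CPM in control, 103 ± 2.13 CPM in SAHA (−0.44, SE 0.04, adjusted p = 1.47e-06) and 108 ± 3.02 CPM in Smarcb1-RE (−0.38, SE 0.04, adjusted p = 3.66e-06), and the treated groups did not differ past the threshold (0.07, adjusted p = 0.178), whereas by library totals Smarcb1-RE was higher than SAHA (0.23, adjusted p = 0.000652). Of 24 FOXM1 target genes, 23 fell under SAHA, where Hmmr was not called (0.06), and all 24 fell in Smarcb1-RE, where 34.3% and 38.6% of all genes fell, with medians of −0.51 and −1.02. Between Smarcb1-RE and SAHA 20 were lower, beside 36.8% of all genes, and 4 were not called. Plk1, the mitotic kinase, went from 104 ± 2.15 CPM in control to 61.7 ± 0.52 CPM in SAHA and 30.7 ± 0.88 CPM in Smarcb1-RE (−1.76, SE 0.04, adjusted p = 4.19e-12). Ube2c, a ubiquitin-conjugating enzyme of the anaphase-promoting complex, and Ccnb1, cyclin B1, fell in Smarcb1-RE with changes of −1.82 and −1.6. Under SAHA the largest falls were in Nek2 (−0.95), Cdc20 (−0.85) and Ccnb2 (−0.80). In separate assays of T15 the study reported slower growth after Smarcb1 re-expression, with viability and cell cycle unchanged. For SAHA at 1 µM it reported strong apoptosis, with most cells dead. Growth rate, cell death and the share of cells in mitosis were not measured in these libraries, and their part in these falls was not tested.

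**Figure D5:**
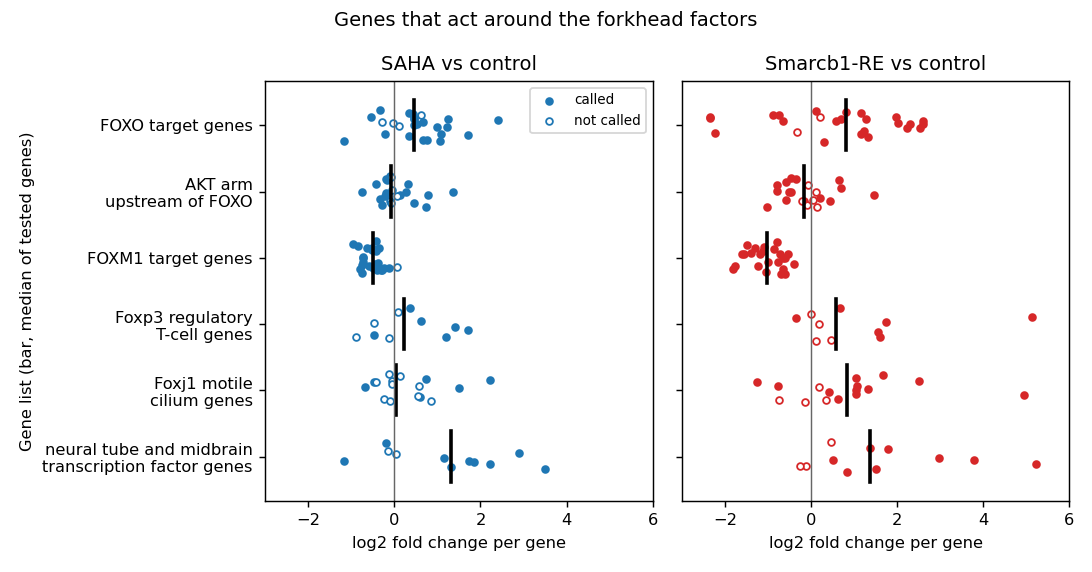
log2 fold change against control of each tested gene of the 6 lists, under SAHA (left) and in Smarcb1-RE (right), filled where called, with a bar at the list's median. The FOXM1 target genes lie left of 0 apart from 1 uncalled gene under SAHA, with medians of −0.51 and −1.02, and the FOXO target genes spread on both sides with medians of 0.46 and 0.82. Of genes at or under 3 counts in a group, the fitted value is drawn.

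The FOXP genes changed little. Foxp1, by counts the most abundant member at 9069 to 9890 counts in control, rose under SAHA from 403 ± 16.4 to 469.5 ± 2.02 CPM (0.22, SE 0.04, adjusted p = 0.000281) and was 359 ± 6.16 CPM in Smarcb1-RE (−0.17, SE 0.04, adjusted p = 0.0017), and by library totals the latter was −0.01 (adjusted p = 0.844). Foxp4 rose under SAHA (0.42, SE 0.06, adjusted p = 4.74e-05) and was at 0.01 in Smarcb1-RE (adjusted p = 0.85), or 0.17 by library totals (adjusted p = 0.0262). Foxp2 rose by 0.22 and 0.40 (adjusted p = 0.0329 and 0.000665), and its SAHA call was lost without control replicate 1 (adjusted p = 0.117). Foxp3, the regulatory T-cell factor, had at most 3 counts in any library. Of 19 genes of the Foxp3 programme, 18 were in the table and 10 tested, of which 5 rose and 1 fell in each comparison with control. Of all genes 32.6% rose and 34.3% fell under SAHA, and 39.2% rose and 38.6% fell in Smarcb1-RE. The list had medians of 0.22 (0.36 with genes at the floor set to their bound) and 0.57. Il10, the anti-inflammatory cytokine, had 2, 1 and 5 counts in control, 2, 0 and 2 under SAHA and 85, 89 and 111 in Smarcb1-RE (5.14 against control, SE 0.40), the group through which alone it passed the filter. Il2ra, the alpha chain of the IL-2 receptor, rose by 1.40 and 1.74 and Nt5e (CD73) by 1.70 and 1.6, while Tigit rose under SAHA (1.20) and was lower in Smarcb1-RE than in SAHA (−1.08). Between Smarcb1-RE and SAHA 5 were higher and 2 lower, beside 37.7% and 36.8% of all genes. Il10 was at least 31.5-fold higher in Smarcb1-RE and Itgae, the CD103 integrin, 0.95 higher on the log2 scale.

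The remaining broadly expressed members moved by less than 1 on the log2 scale. Foxk2, a repressor of starvation and autophagy genes, fell stepwise from 123 ± 7.74 CPM in control to 97.6 ± 4.61 CPM in SAHA (−0.33, adjusted p = 8e-05) and 77.5 ± 0.40 CPM in Smarcb1-RE (−0.66, SE 0.05, adjusted p = 9.32e-08). Its paralogue Foxk1 was not called in any comparison (−0.05 under SAHA and −0.14 in Smarcb1-RE), but without control replicate 1 it was (−0.17, adjusted p = 0.00102, and −0.27, adjusted p = 2.36e-05). Foxf2 fell in both (−0.32, adjusted p = 0.000142, and −0.27, adjusted p = 0.000427), the latter not past the threshold by library totals (−0.11, adjusted p = 0.0758). Foxn3, a checkpoint suppressor, rose from 90.5 ± 2.77 to 113 ± 1.73 and 132 ± 3.79 CPM (0.32 and 0.55, adjusted p = 1.5e-05 and 5.27e-08). Foxn2 and Foxj2 rose under SAHA (0.61 and 0.54, adjusted p = 6.39e-07 and 2.96e-05) and stood at 0.02 and 0.10 in Smarcb1-RE, where scaling by library totals gave called rises of 0.17 and 0.26. Foxj3 was the reverse, at −0.05 under SAHA and 0.47 in Smarcb1-RE (SE 0.05, adjusted p = 4.25e-06). It lies on chromosome 4 and overlaps the antisense gene Frg2f1, which had up to 177 counts, and the part of either in its rise was not tested.

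Of the members that lie side by side, only those on chromosome 13 were all tested, and these did not move alike. On chromosome 13 Foxq1, Foxf2 and Foxc1 lie in a row with gaps of 64.8 and 175 kb, and in Smarcb1-RE they were at 1.20, −0.27 and 0.63. On chromosome 8 Foxf1, Foxc2 and Foxl1 lie within gaps of 28.0 and 9.04 kb, and only Foxc2 passed the filter. Gm20388, on the same strand, covers all of them. On chromosome 4 Foxd2 rose in Smarcb1-RE, while Foxe3, 16.3 kb away, was at 0 in every library.

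The 17 forkhead genes that were not tested were at very low counts. Foxd3, Foxe1, Foxe3, Foxi2, Foxn1 and Foxs1 were at 0 in all 9 libraries, and Foxa2, Foxf1, Foxl2 and Foxp3 had at most 3 counts in any library. The other 7 (Foxd1, Foxh1, Foxi3, Foxl1, Foxn4, Foxo6 and Foxr2) passed 3 counts in at least 1 library. Of these Foxd1, a factor of kidney stroma, had 7, 7 and 6 counts in SAHA, 0, 1 and 0 in control and 1, 1 and 2 in Smarcb1-RE, so that the SAHA libraries were the only ones above the floor. A count of 0 at this depth allows up to 0.123 to 0.133 CPM, so low expression of these genes was not detectable here. Foxa3, a liver factor at 14 to 34 counts, was tested and not called (0.24 under SAHA and 0.51 in Smarcb1-RE, adjusted p = 0.55 and 0.17), but without control replicate 1 it was called in Smarcb1-RE (0.87, adjusted p = 0.0324).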

How the data were processed

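Total RNA of 9 T15 libraries was made into directional NEBNext Ultra II libraries and read single-end on a NextSeq 500. The submitters' processing notes name FastQC 0.11.8, MultiQC 1.7, Salmon 0.14.1, DESeq2 1.22.2 and the build GRCm38. The authors deposited estimated counts per gene, not normalized, of which 52.4% of the values above 0 were not whole, and these were rounded. The annotation release and any use of strand in counting are not given in the sources used here. Gene identifiers were matched to GENCODE M21 (99.5% of 35288 identifiers, 99.9% of counts).

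Genes were filtered with filterByExpr (minimum count 10), scaled by TMM and fitted together over the 3 groups with edgeR 4.0.16 (R 4.3.3, quasi-likelihood test). Adjusted p-values are Benjamini-Hochberg values over all 13697 genes tested, with a threshold of 0.05, and the common biological coefficient of variation was 5.24%. Each log2 fold change is from this fit, CPM uses the TMM-scaled library totals, and levels between genes were compared per kilobase of merged exons. On simulated data 90.5% of 200 changed genes were recovered for SAHA (12813 genes, 5.73% of calls false) and 90.5% of 199 for Smarcb1-RE (12801 genes, 3.74%). Far fewer genes changed in the simulation than in the data. They changed up and down by at least 1 on the log2 scale, at 10 or more expected counts. It therefore does not give the recovery of smaller changes, or the share of false calls, in these libraries. DESeq2 1.42.0, other scalings, filters and thresholds, separate fits, a replicate block and leaving out each library were run as alternatives. Floors cover counting error only.

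Members and lists were chosen with earlier results of these data known. Members called in a comparison with an absolute log2 fold change of at least 1, and the Foxb pair, are given per library. The other called members are given per group. From each of the 6 lists the 3 called genes that had changed most on the log2 scale, in either direction, were named per comparison, and Hmmr was named after its values were seen. Some genes and sequences that these rules would name, 1 forkhead gene among them, are counted but not reported here. Skp2 and Rictor each stand on 2 lists. Markers of T, B, myeloid, epithelial and stromal cells were summed per library. Same-numbered libraries of different groups correlated at −0.06 to 0.04 in their deviations from the group means, so the numbers were not taken to pair them.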

Additional observations from a re-analysis of the deposited data

How the results depend on the processing

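Of 1006 combinations of a called forkhead comparison and an alternative, 922 kept direction and call, 84 lost the call and 0 reversed. The called comparisons of Foxb1, Foxb2, Foxd4 and Foxr1 are among them, although the Smarcb1-RE differences of these genes are given without a test. Requiring an absolute log2 fold change of at least 1 left 2 forkhead genes higher and 0 lower under SAHA, 4 and 4 in Smarcb1-RE, and 5 and 5 between Smarcb1-RE and SAHA. On the lists it left, under SAHA, 6 FOXO targets higher and 1 lower, 1 AKT-arm gene higher and 0 lower, 0 FOXM1 targets lower, 3 regulatory T-cell genes higher and 0 lower, 2 cilium genes higher and 0 lower and 1 neural gene lower. In Smarcb1-RE it left 3 FOXO targets lower, 1 AKT-arm gene higher and 1 lower, 12 FOXM1 targets, 0 regulatory T-cell genes and 1 cilium gene lower, and of the neighbours 2 under SAHA, 1 in Smarcb1-RE and 3 between Smarcb1-RE and SAHA. With at least 10 counts in every library, which tests fewer genes, 7 forkhead genes were lower in Smarcb1-RE than in SAHA. In Smarcb1-RE 3 regulatory T-cell and 4 neural genes were higher and 1 cilium gene lower, and under SAHA 1 cilium gene was lower, 3 neural genes higher and 1 lower. With no filter 1 cilium gene fell under SAHA and 4 in Smarcb1-RE, and 1 neural gene fell in Smarcb1-RE. DESeq2, separate fits and a threshold of 0.01 each left 1 cilium and 1 neural gene lower under SAHA. Shares of all genes called under these settings are not given, so these counts cannot be set against a background. Per longest transcript, levels were 81.6 (Foxf2) and 117 (Foxp1) and 4.64 (Foxb2) in control and 41.7 (Foxb1) in Smarcb1-RE.

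With the replicate number as a block, forkhead counts stayed at 14 and 3, 11 and 9, and 9 and 11, and 1 cilium gene instead of 2 was lower under SAHA. Leaving out each library gave 3 to 5 forkhead genes lower under SAHA (5 without control replicate 1), and 1 to 2 regulatory T-cell, cilium and neural genes lower there. Shares of all genes called are not given for these refits either. Reversals were all among uncalled values. Scaling by library totals gave Foxk1 0.019 in Smarcb1-RE and 0.070 against SAHA, and Foxo4 0.10 against SAHA. The filter of 10 counts in every library gave Foxc1 0.024 under SAHA, and no filter gave Foxn2 −0.012 and Foxp4 −0.014 in Smarcb1-RE. Leaving out a library gave, under SAHA, −0.31 to 0.040 for Foxb2, −0.26 to 0.12 for Foxc1, −0.48 to 0.27 for Foxc2, −0.16 to 0.63 for Foxj1, −0.17 to 0.027 for Foxk1 and −0.59 to 0.21 for Foxr1, and in Smarcb1-RE −0.036 to 0.030 for Foxn2 and −0.045 to 0.059 for Foxp4. The cause was not tested for these changes.

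Calls nearest the threshold were lost most often. DESeq2 lost Foxc1 in Smarcb1-RE (adjusted p = 0.0569) and Foxr1 between Smarcb1-RE and SAHA (0.104), no filter lost Foxp2 under SAHA (0.0586), and leaving out SAHA replicate 3 lost Foxd4 there. At these depths genes under 3 counts could not be compared.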
